A study of Allium sativum with 84 samples.

Results

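An ELF4-like gene (Asa2G00681.1) and a CDF2 homolog (Asa8G01471.1) were followed through the enlarging bulbs of 84 garlic accessions. They are 2 of the 57561 genes in the expression table. They were chosen by the names that the study gives them. The study had itself examined the levels of the ELF4-like gene in these bulbs. It reports a difference between its 2 cultivated groups and a positive correlation with clove weight. The values of this gene are therefore not free of selection. The IDs place the ELF4-like gene on chromosome 2 and the CDF2 homolog on chromosome 8. Coordinates and sequences of these genes were not analysed here.

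The study grew all accessions of garlic (Allium sativum), a clonally propagated crop, on an experimental farm in Shandong, and cut the bulbs in spring while they enlarged. Each accession gave 1 RNA-seq library, and the labels differ only in the country or collection site, with 68 accessions from China and 16 from other countries. Bulbs of an accession were pooled, but the labels and the study give different numbers of bulbs and of accessions, and a single variety name stands as the source of all libraries in the labels. The hour at which bulbs were cut was not given in the sources used here. Accessions of a site are called its replicates, so the spread within a site includes genetic differences between accessions. Each p-value rests only on the spread between the accessions in its test, which in tests that pool sites also includes differences between sites.

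ELF4 of Arabidopsis is a small protein of the evening complex, in which it joins ELF3 and a DNA-binding partner to repress growth genes and other clock genes at night. CDF proteins are DOF-type transcription factors. They repress CONSTANS and FT, genes of the day-length pathway, until light-dependent degradation removes the CDF proteins. In potato, a CDF protein takes part in the day-length control of tubers, and bulbing of Allium crops is likewise a response to day length. The roles below come from such model plants and were not measured here.

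Expression is given in FPKM, a fragment count scaled for the length of the gene and for library size, so levels of different genes can be compared per length. Libraries differed in relative depth from 0.449 to 1.03, with the first library at 1. Whole reads were recovered behind every value of the 2 genes (100% of values within 0.05 of a whole number), 39 to 1035 reads for ELF4-like with a median of 149, and 6 to 1421 for CDF2 with a median of 306. Intervals below are exact 95% Poisson intervals of these reads, and they cover counting error only. Taken in the order in which the columns of the table stand, the libraries broke most strongly after columns 23 and 7 in the expression of all other genes. This gave blocks of 7, 16 and 61 libraries, which the labels do not name and whose origin was not tested. Among the 7 libraries in the first block, 6 were from China and 1 from Canada. In bulk tissue, fewer cells that express a gene and less RNA per cell cannot be told apart.

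Both genes were well expressed, ELF4-like the more strongly. The level of ELF4-like had a median of 34.6 FPKM (mean 42.5 ± 32.1, SD, n = 84), higher than the median of 85.3% of the 36007 genes that passed the filter on low values. It ran from 9.79 to 223 FPKM, a 22.8-fold range, with quartiles of 20.6 and 50.9. The level of CDF2 had a median of 17.2 FPKM (mean 18.2 ± 9.41, SD, n = 84), above 73.8% of those genes, and ran from 0.385 to 48.97 FPKM. ELF4-like was the higher of the pair in 64 accessions and CDF2 in 20, and the ratio of ELF4-like to CDF2 had a median of 2 and ran from 0.38 to 140.1. Counting error made up 0.967% of the variance of ELF4-like and 1.17% of that of CDF2, so nearly all of the spread lay between libraries.

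The 2 genes spread in different ways. On the log2(FPKM + 1) scale the SD of ELF4-like was 0.89, above that of 79.7% of the 6830 other genes within 2-fold of its median level, whose median SD was 0.49. The SD of CDF2 was 1.01, above that of 80.5% of 8736 such genes. Without the first 7 columns the SD of ELF4-like was 0.92 and that of CDF2 fell to 0.58, above 81% and 55.3% of the genes of like level over the same 77 libraries. Much of the spread of CDF2 thus lay in a few libraries. ELF4-like had an 18.5-fold range in the second block and a 14.1-fold range in the third, but a 2.24-fold range in the 7 libraries of the first. A range widens with the number of libraries, and the blocks differ in size. In the 10 libraries of the second block from China the range was 3.12-fold. The Shannon-Wiener index H', computed from 10 intervals of 0.5 SD around the mean after the index used in the study, was 2.47 for ELF4-like and 2.85 for CDF2, beside a median of 2.56 over the tested genes.

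**Figure D1:**
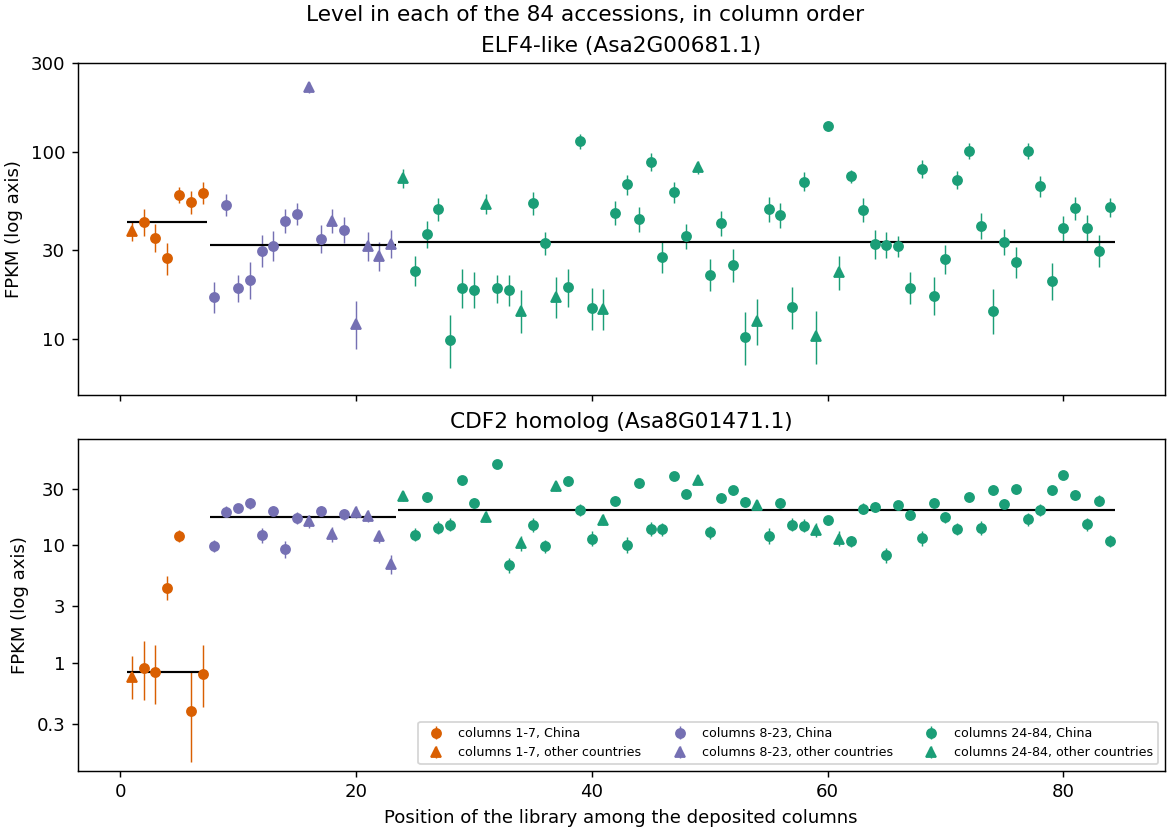
Level of ELF4-like (upper) and the CDF2 homolog (lower) in each of the 84 libraries, in FPKM on a log axis, against the position of the library among the deposited columns. Colours give the column block, triangles the 16 accessions from other countries, bars the exact 95% Poisson interval of the reads, and black lines the median of a block, which for CDF2 is 0.832 FPKM in the first 7 columns and 17.4 and 19.8 FPKM in the others.

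CDF2 was almost silent in 5 libraries, all of them in the first block. Gansu replicate 1 had 0.385 FPKM of CDF2 from 6 reads (interval 0.141 to 0.838), Canada replicate 5 had 0.76 FPKM from 24 reads (0.487 to 1.13) and Xizang replicate 1 had 0.802 FPKM from 12 reads (0.414 to 1.401). Shandong replicate 8 had 0.832 FPKM of CDF2 from 13 reads (0.443 to 1.42) and Qinghai replicate 1 had 0.893 FPKM, also from 13 reads (0.476 to 1.53). The other libraries of this block were Xinjiang replicate 3, with 4.34 FPKM (3.38 to 5.49), and Sichuan replicate 2, with 11.9 FPKM (10.7 to 13.3). In the remaining 77 libraries CDF2 ran from 6.73 to 48.97 FPKM, so 6 of the 7 libraries in the first block lay below all of them and Sichuan replicate 2 lay among them.

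The low CDF2 values did not come with low depth or with low ELF4-like. The 5 libraries had relative depths of 0.461 to 1, against 0.449 to 1.03 in the other 79. Their ELF4-like levels were 34.8 to 60.3 FPKM, all at or above the median of the 84 accessions. The mean of CDF2 in the first block was lower than in the other columns by 2.81 on the log2 scale (1.43 ± 1.18 against 4.25 ± 0.58, SD), and only 48 of the 36007 tested genes were lower there by more, beside a median of -0.07 over all of them. ELF4-like had 5.47 ± 0.43 in the first block and 5.13 ± 0.92 in the others, a difference of 0.34. As a description, the column block held 61.4% of the variance of CDF2, more than for 99.5% of the tested genes, and 1.15% of that of ELF4-like, whose value exceeded that of 11.3% of them. The 5 low libraries come from 5 different sites, and whether the block or the accessions set their level cannot be told apart, since each accession has 1 library.

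The main axes of bulb expression, computed without the 2 genes, gave the opposite picture. The first 3 principal components (27.2%, 13.4% and 9.58% of the variance) together held 48.6% of the variance of ELF4-like but 2.15% of that of CDF2, beside 36.2% for the median gene, and only 1.66% of the tested genes had less than CDF2. The 43 accessions below 0 on the first component had a median of 49.4 FPKM of ELF4-like (14.4 to 223), and the 41 above 0 had 25.8 FPKM (9.79 to 60.8). The corresponding medians of CDF2 were 16.5 and 18.2 FPKM. A further 7 accessions stood apart on the third component, namely both from Greece, those from Israel and Eygpt, and Xinjiang replicates 3, 6 and 8. Their ELF4-like had a median of 14.6 FPKM (10.3 to 32.1), against 37.6 in the other 77, and the ranges overlapped.

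ELF4-like reached its highest level in Canada replicate 2, at 223 FPKM (interval 208.2 to 238.9). Yunan replicate 1 followed with 138 FPKM of ELF4-like, Hebei replicate 3 with 114.03, Shandong replicate 14 with 101.6 and Xinjiang replicate 1 with 101.1 FPKM. The intervals of the first 3 places did not overlap each other, while those of the next pair did. The lowest ELF4-like levels were 9.79 FPKM in Xinjiang replicate 4, 10.2 in Hunan replicate 1, 10.3 in the accession from Israel, 12.1 in Canada replicate 3 and 12.4 in Greece replicate 2, and these 5 intervals overlapped. Canada and Xinjiang each held accessions at both ends of the range.

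CDF2 was highest in Guizhou replicate 3, with 48.97 FPKM (interval 46.5 to 51.6, 1421 reads), followed by 39.2 in replicate 6 of the accessions from China without a province and 38.5 in Guizhou replicate 2. Canada replicate 1 had 36 FPKM of CDF2 and the accession from Taiwan 35.5. Guizhou replicate 1, in the second block, had 9.17 FPKM. The highest accession of each gene was not among the highest of the other. Canada replicate 2, the highest in ELF4-like, stood at place 47 for CDF2 with 16 FPKM, and Guizhou replicate 3 stood at place 69 for ELF4-like with 18.6 FPKM. Canada replicate 1 was high in both, at place 7 for ELF4-like (82.9 FPKM) and place 4 for CDF2. Of the 21 highest accessions of each gene, 4 were shared, as were 4 of the 21 lowest. Among the 21 lowest in ELF4-like, 7 were among the 21 highest in CDF2, and among the 21 lowest in CDF2, 5 were among the 21 highest in ELF4-like. These overlaps were not compared with those of unrelated genes.

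**Figure D2:**
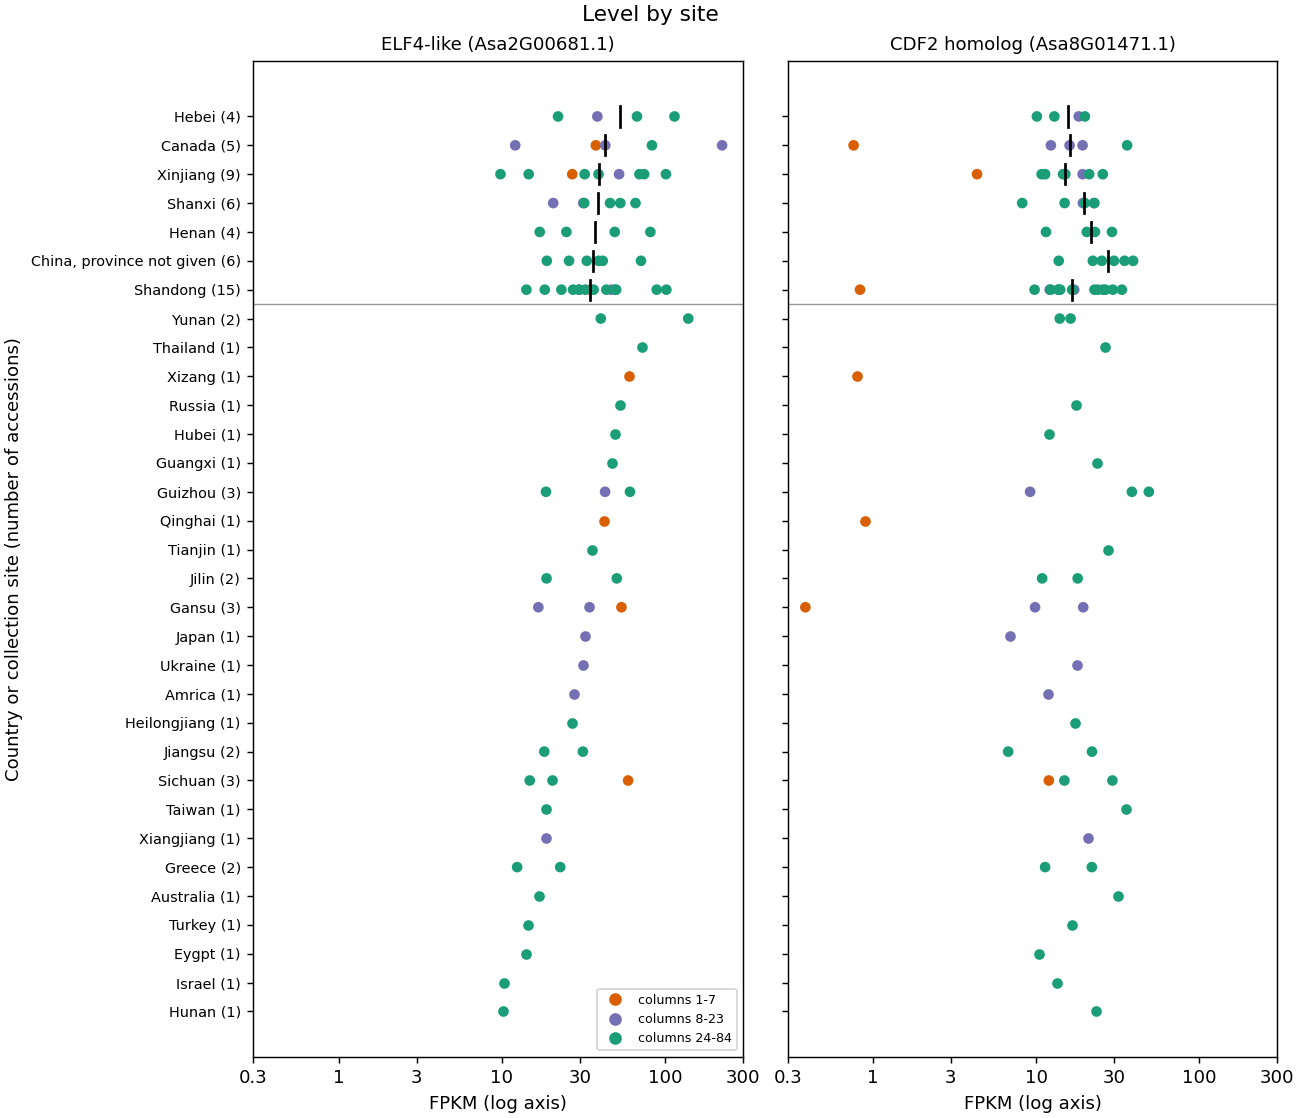
Level of ELF4-like (left) and the CDF2 homolog (right) by country or collection site, in FPKM on a log axis. Each point is an accession coloured by column block, the number of accessions is given after the site, and black ticks mark the median of groups with at least 4 accessions. Sites overlap for both genes, with ELF4-like from 12.1 to 223 FPKM among the 5 accessions from Canada alone.

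Whether the collection site of an accession goes with the level of these genes was asked at 4 scales, each fitted with limma over all genes that passed the filter, with Benjamini-Hochberg adjustment. Neither gene was called in any of them. Accessions from other countries had a median of 29.5 FPKM of ELF4-like (10.3 to 223, n = 16) and those from China 35.9 (9.79 to 138, n = 68), a log2 difference of -0.25 ± 0.24 (SE, adjusted p = 0.644, limma). For CDF2 the medians were 16.2 and 17.6 FPKM and the log2 difference -0.12 ± 0.28 (adjusted p = 0.874, limma). This comparison called 3.67% of the 36007 tested genes. Within the second and the third block the difference of ELF4-like was 0.31 and -0.52, and that of CDF2 was -0.26 and 0.00 to 2 decimals, so the sign did not hold across blocks for ELF4-like. The first block held 1 accession from another country.

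Among the 6 sites with at least 4 accessions (43 accessions), the site explained 4.36% of the variance of ELF4-like and 4.63% of that of CDF2. The F test over sites gave adjusted p = 0.989 for ELF4-like and 0.987 for CDF2 (limma), and it called 0.0442% of 33913 genes. Mean ELF4-like on the log2 scale was in the order Canada (5.73 ± 1.51, SD, n = 5), Hebei (5.69 ± 1.0, n = 4), Shanxi (5.31 ± 0.59, n = 6), Xinjiang (5.26 ± 1.07, n = 9), Shandong (5.23 ± 0.74, n = 15) and Henan (5.22 ± 0.98, n = 4). For CDF2 the order was Henan (4.39 ± 0.54), Shanxi (4.17 ± 0.52), Shandong (4.03 ± 1.01), Hebei (3.98 ± 0.42), Xinjiang (3.90 ± 0.67) and Canada (3.64 ± 1.67). No neighbours in either order differed by more than their pooled SD. Contrasts with Shandong ran from -0.01 to 0.49 for ELF4-like and from -0.39 to 0.36 for CDF2, with no adjusted p under 0.647 (limma). Canada against Shandong called 1.35% of the genes and the other contrasts 0%.

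Day length in the growing season depends on latitude, so accessions collected in southern China were compared with those of the North China Plain. All grew on the same farm, so this compares their origin, and a response to day length was not tested. ELF4-like had a median of 41.6 FPKM in the south (10.2 to 138, n = 12) and 35.9 in the north (14.1 to 114.03, n = 24), with a log2 difference of -0.18 ± 0.30 (adjusted p = 0.838, limma). The medians of ELF4-like put the south higher and the log2 means put it lower, so the direction depended on the summary used. CDF2 had 19.8 FPKM in the south (9.17 to 48.97) and 17.6 in the north (0.832 to 33.5), a difference of 0.30 ± 0.28 (adjusted p = 0.654, limma). In the third block, which held 10 southern and 20 northern accessions, the differences were -0.30 for ELF4-like and 0.31 for CDF2. In the second block, with 1 against 3 accessions, they were 0.18 and -0.70, and in the first, with 1 against 1, they were 0.75 and 2.82. No gene was called in this comparison (0% of 33360 by limma), and 4490 had an unadjusted p under 0.05.

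ELF4-like was below the median of the 84 accessions (34.6 FPKM) in all 5 accessions from the eastern Mediterranean. Greece replicate 1 had 22.7 FPKM and replicate 2 had 12.4, Turkey 14.4, Eygpt 14.1 and Israel 10.3, a mean of 14.8 ± 4.74 FPKM (SD, n = 5). The Canada accessions, replicates 1 to 5, had 82.9, 223, 12.1, 43 and 37.6 FPKM. None of the 5 Mediterranean accessions reached the median of Canada, but Canada replicate 3 lay within their range. The log2 difference was -1.79 ± 0.62 (limma, adjusted p = 0.107, unadjusted p = 0.0143), in a comparison that called 6% of 28108 genes and in which the median of all tested genes was shifted by 0.21. Without Canada replicate 3 the difference was -2.30 and passed the threshold (adjusted p = 0.0422, limma). Without Canada replicate 2, the accession highest in ELF4-like, it was -1.27 (adjusted p = 0.167, limma), and with the column block as covariate the adjusted p was 0.268. All Mediterranean accessions but only Canada replicate 1 were in the third block, where the difference from that 1 accession was -2.46, and 4 of the 5 are among the accessions apart on the third component. Site, block and component cannot be told apart here.

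CDF2 was not called between the eastern Mediterranean and Canada either. The Mediterranean accessions had 10.3 to 21.9 FPKM of CDF2 and the Canada accessions 36, 16, 19.2, 12.3 and 0.76, with a log2 difference of 0.29 ± 0.68 (adjusted p = 0.837, limma). Canada replicate 5 is among the 5 nearly silent libraries, and without it the difference was -0.42 (adjusted p = 0.484, limma). In the third block the difference was -1.29, against Canada replicate 1 alone.

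No relation between ELF4-like and CDF2 passed the test. Across the 84 accessions Pearson's r on the log2 scale was -0.10 (permutation p = 0.347, adjusted p = 0.579) and Spearman's rho was -0.10 (permutation p = 0.38, adjusted p = 0.678), with adjustment over the 25 pairs described below and 100000 permutations. Without the 2 accessions farthest from the median of ELF4-like, r was -0.12. Within the blocks r was 0.03 (n = 7), -0.04 (n = 16) and -0.04 (n = 61), and on the lower and upper side of the first component it was 0.01 (n = 43) and -0.24 (n = 41). After the first 3 components were removed from both genes, r was -0.21 (permutation p = 0.055) and rho was -0.28 (permutation p = 0.0116, not adjusted). Of the settings tried for this pair, that was the only one in which r and rho fell on different sides of 0.05.

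**Figure D3:**
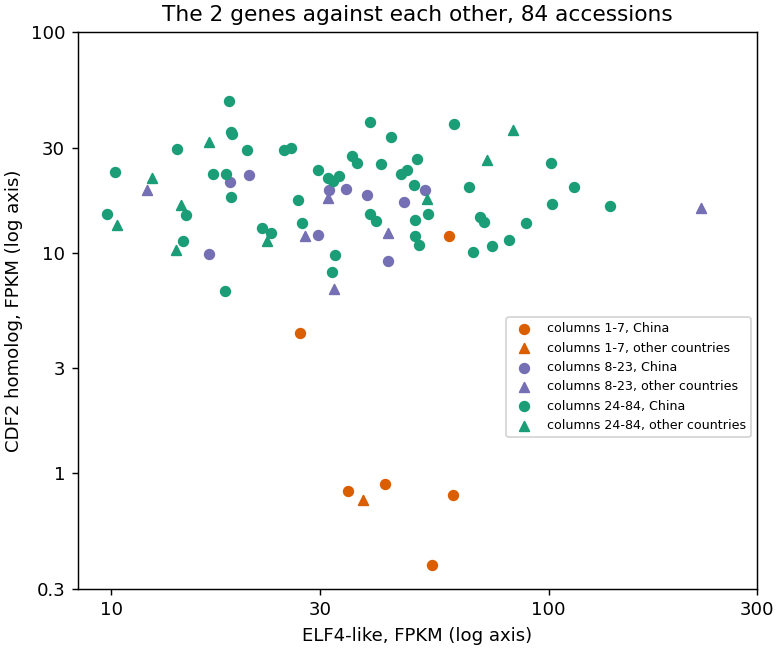
CDF2 homolog against ELF4-like in the 84 accessions, both in FPKM on log axes, coloured by column block and with triangles for other countries. The cloud of 77 libraries has little slope (r = -0.04 without the first 7 columns), and 5 libraries lie below 1 FPKM of CDF2 at 34.8 to 60.3 FPKM of ELF4-like.

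The 12 other genes that the study names for bulb traits were set beside each member. They include homologs of SLR1 (a DELLA repressor of gibberellin signalling in rice), BEL5 (a promoter of tuber formation in potato), GA 20-oxidase (an enzyme of gibberellin synthesis), FT, TGA4 (a bZIP transcription factor of Arabidopsis), TB1 (a repressor of branching in maize), YUCCA (auxin synthesis), TOPLESS (a transcriptional co-repressor) and AXR1 (auxin signalling). The study chose some of them, such as the YUCCA-like and TOPLESS-related genes, by their levels in these accessions, so their relations are not independent evidence, and others, such as the TGA4-like genes, by a separate comparison of bulbs before and during enlargement. Of 25 pairs, the pair of members included, 5 passed an adjusted p of 0.05 by Pearson's r and 4 by Spearman's rho.

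ELF4-like rose with 4 of the 12 genes, beside the 41.7% of all tested genes that varied with it in either direction in the limma regression described below. Its r was 0.44 with the TOPLESS-related Asa4G00255.1 (adjusted permutation p = 0.001, rho = 0.47, 0.586 to 29.3 FPKM), 0.40 with the TGA4-like Asa2G04763.1 (adjusted permutation p = 0.00212, rho = 0.41, 0.6 to 62.7 FPKM) and 0.32 with Asa2G00253.1, the second ID printed for the AXR1-like gene (adjusted permutation p = 0.0149, rho = 0.42). The r of 0.37 with the GA 20-oxidase Asa4G02474.1 (adjusted permutation p = 0.0045, rho = 0.37) rests on a gene that is listed at 0 in 36 libraries and never above 0.833 FPKM. The adjusted permutation p of rho was 0.0005, 0.001, 0.001 and 0.00337, in the same order of the first 3 genes and the GA 20-oxidase. Without the 2 accessions farthest from the median, these r were 0.45, 0.42, 0.42 and 0.35. The 4 genes had unlike relations in the blocks. In the third block r was 0.59 for the TOPLESS-related gene, 0.50 for the TGA4-like gene, 0.48 for Asa2G00253.1 and 0.37 for the GA 20-oxidase, and in the second block it was 0.06, -0.01, -0.08 and 0.60. In the first block, of 7 libraries, it was 0.62, 0.37, 0.25 and 0.31. The other entries of the same names did not pass with ELF4-like. Their r was -0.02 for the AXR1-like Asa2G00503.1, -0.10 for the TGA4-like Asa6G01159.1 and -0.20 for the GA 20-oxidase Asa0G05638.1. The adjusted permutation p was 0.849, 0.579 and 0.18, in that order.

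Much of the relations with ELF4-like that passed lay along the main axes of expression. With the first 3 components removed, r was -0.05 for the TOPLESS-related gene, 0.04 for the GA 20-oxidase and -0.08 for Asa2G00253.1, but 0.30 for the TGA4-like gene. On the lower and upper side of the first component the TGA4-like gene kept r = 0.59 and 0.35 with ELF4-like, whereas the TOPLESS-related gene had 0.30 and -0.25. The FT-like Asa6G06199.1, whose relatives carry the flowering signal in other plants, had r = -0.24 with ELF4-like and 0.03 with CDF2 and did not pass in either case (adjusted permutation p = 0.121 and 0.819).

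CDF2 varied with 1 of the 12 genes, in the opposite direction to ELF4-like. In the limma regression described below, 15.8% of all tested genes varied with CDF2 in either direction. Its r with Asa2G00253.1 was -0.36 (adjusted permutation p = 0.00544), but rho was -0.25 and did not pass (adjusted permutation p = 0.098). Without the 2 accessions farthest from the median of CDF2 r was -0.25, and within the blocks it was 0.33, 0.49 and -0.25, so its sign was not shared by the blocks. With the first 3 components removed this r was -0.46, and on the lower and upper side of the first component it was -0.31 and -0.43. The other ID of the AXR1-like gene, Asa2G00503.1, had r = 0.06 with CDF2 (adjusted permutation p = 0.74). The TGA4-like Asa2G04763.1 had r = 0.21 with CDF2 (adjusted permutation p = 0.166), with 0.30, 0.75 and 0.24 within the blocks.

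**Figure D4:**
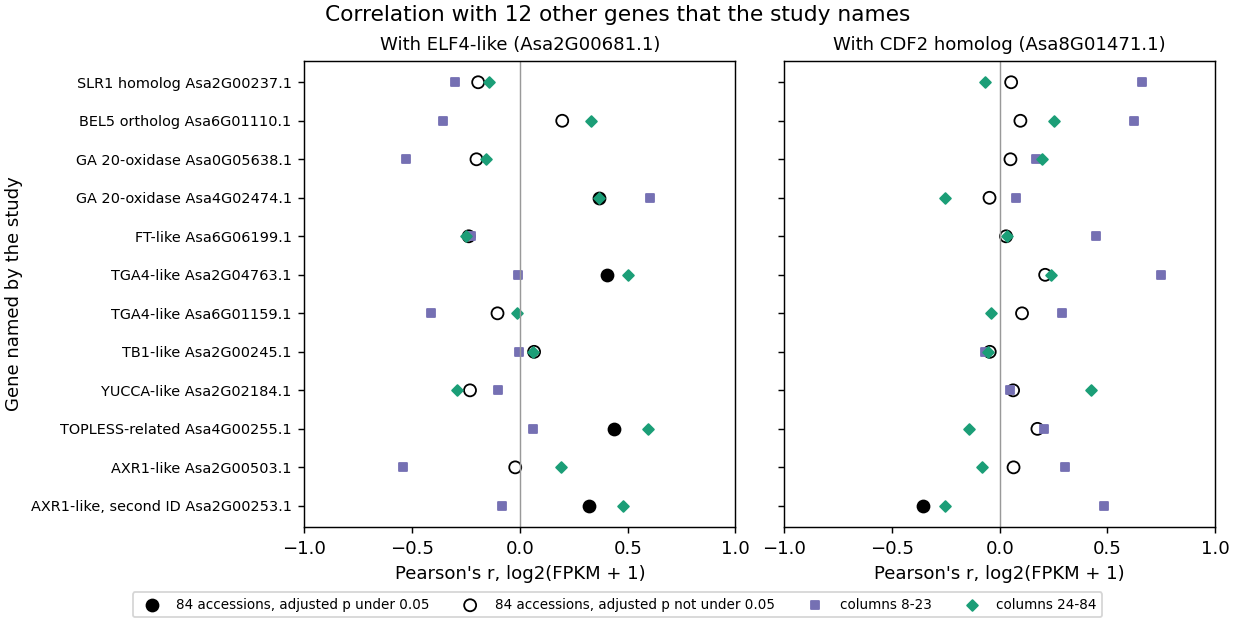
Pearson's r of ELF4-like (left) and the CDF2 homolog (right) with the 12 other genes that the study names, on log2(FPKM + 1). Circles give all 84 accessions, filled where the adjusted permutation p is under 0.05 (4 genes with ELF4-like, 1 with CDF2), and squares and diamonds give the 16 and 61 libraries of the second and of the third column block, where r often differs.

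Regression of every tested gene on each member asked how widely it shares its pattern. With ELF4-like, 15002 of 36006 other genes were called (41.7%, limma, adjusted p under 0.05), of which 6717 rose with it and 8285 fell. With the first 3 components as covariates 2084 were called, 264 rising and 1820 falling, and 1138 of these were among the 15002. With CDF2, 5681 genes were called (15.8%), 3690 rising and 1991 falling. After median-ratio scaling of the libraries the CDF2 split turned to 1511 rising and 2518 falling of 4029. Without the first column block 1424 genes were called with CDF2, 616 of them shared with the 5681, and without the 5 nearly silent libraries 1739 were called, 873 shared. In the third block alone, by contrast, 6024 genes were called with CDF2 (17.3%), 984 of them shared with the 5681. Of the 12 genes named by the study, 11 passed the filter. Of these 3 rose and 0 fell with ELF4-like at adjusted p under 0.05 (limma), beside 18.7% rising and 23% falling among all tested genes, and 0 rose and 1 fell with CDF2, beside 10.2% and 5.53%. The 3 that rose with ELF4-like were the TOPLESS-related, the TGA4-like Asa2G04763.1 and Asa2G00253.1, and the last was also the 1 that fell with CDF2.

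The closest companions were picked by r among the 26035 genes that reached 1 FPKM in 42 accessions or more, and their r is a description. The table gives no names for them. For ELF4-like the highest r was 0.72, with Asa2G04037.1 (18.3 to 126 FPKM), and 0.71, with Asa8G03813.1 (55.9 to 172.6 FPKM), and in the third block both had r = 0.79. The lowest r was -0.75, with Asa7G02324.1 (6.77 to 71.4 FPKM), and -0.72, with Asa0G02401.1 (30.1 to 1408 FPKM). With the 3 components removed these 4 values were 0.36, 0.51, -0.51 and -0.37. A total of 1848 tested genes had r beyond 0.5 in size with ELF4-like and 814 with CDF2, beside a median of 1640 for a tested gene.

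CDF2 had a closer companion than ELF4-like, Asa7G01587.1, with r = 0.86 (rho = 0.81). This gene had 0.818 to 13.5 FPKM in the first 7 columns and 42.4 to 339 FPKM (median 135.4) in the other 77, so the groups of libraries did not overlap. In Sichuan replicate 2, where CDF2 was at 11.9 FPKM, Asa7G01587.1 was at 0.958 FPKM, so that library was low in the companion and not in CDF2. The relation did not rest on the first block, since r was 0.78 without it, 0.86 in the third block alone and 0.87 with the 3 components removed. The next highest, Asa2G01738.1 (r = 0.73, 15.3 to 124.1 FPKM), was 0.46 in the third block.

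The genes with the lowest r to CDF2 had weaker relations without the first block. Asa2G00625.1 (r = -0.69) had 8.44 to 86.7 FPKM in the first 7 columns, with a median of 36.7, against a median of 1.01 FPKM (0.0608 to 23.7) in the other 77, and its r was -0.34 without the first block and -0.50 in the third block alone. Asa6G06233.1 (r = -0.68) had 100.1 to 663.2 FPKM against 26.6 to 155 FPKM, with r = -0.33 without the first block and -0.44 in the third block alone.

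**Figure D5:**
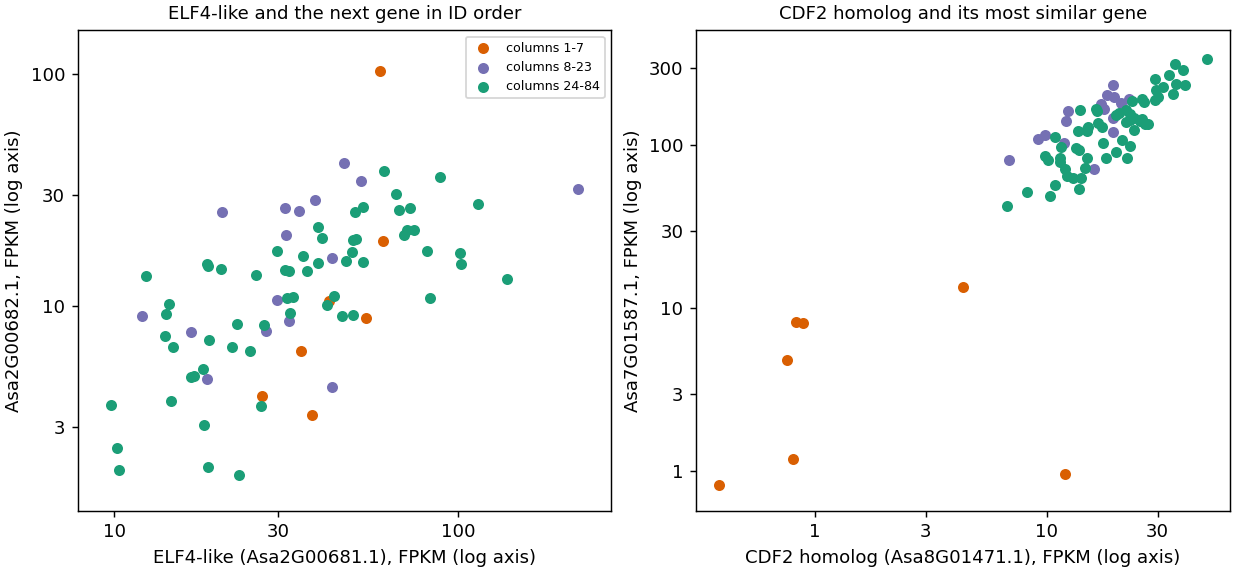
ELF4-like with the next gene in ID order, Asa2G00682.1 (left, r = 0.63), and the CDF2 homolog with its most similar gene, Asa7G01587.1 (right, r = 0.86), in 84 libraries, in FPKM on log axes and coloured by column block. On the right the first 7 columns lie at or below 13.5 FPKM of Asa7G01587.1 and all others at or above 42.4, and Sichuan replicate 2 is the point at 11.9 FPKM of CDF2.

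Neighbours by gene ID were compared, since IDs run along the chromosome. The gene after ELF4-like, Asa2G00682.1, was expressed in every library (1.86 to 103.2 FPKM, median 13.5) and had r = 0.63 with it, which 40 of the other tested genes exceeded. It had r = 0.72 in the third block and 0.47 with the 3 components removed. The gene before ELF4-like, Asa2G00680.1, was listed at 0 in 83 libraries, and the further neighbours had r of 0.06 to 0.33. Sichuan replicate 2 had the highest level of Asa2G00682.1, at 103.2 FPKM, while its ELF4-like was 59.3 FPKM. The genes on either side of CDF2, Asa8G01470.1 and Asa8G01472.1, were expressed in every library (medians of 59.6 and 35.4 FPKM) with r of 0.10 and 0.19. Without the first block these r were 0.01 and -0.14. Neither gene was nearly silent in any library, as their lowest levels were 20.3 and 24 FPKM. The sources used here do not give the strand setting of the counting or any overlap of these genes, so reads shared between neighbours were not tested.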

How the data were processed

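RNA-seq of enlarging bulbs was analysed for 84 garlic accessions. Per the submitters' processing notes the authors aligned reads with HISAT2 2.2.1.0. They deposited FPKM per gene, and the counting program was not given in the sources used here. FPKM are not counts, so values were tested as log2(FPKM + 1), a scale that understates changes of low genes, with limma 3.58.1 (R 4.3.3, intensity trend, two-sided, adjusted p threshold 0.05) over genes that reached 1 FPKM in 4 or more fitted accessions. The country comparison, the regressions and the permutation test were tested on simulated data with known answers. The study also fitted groups without covariates. Correlations used 100000 two-sided permutations. Column blocks and components were computed without the 2 genes. Depth was recovered from the steps that single reads leave in low FPKM. Sites came from the labels. Southern China was Guangxi, Yunan, Hunan, Sichuan, Guizhou, Hubei and Taiwan, and the North China Plain was Shandong, Hebei, Henan and Tianjin. The eastern Mediterranean was Greece, Israel, Eygpt and Turkey. Genetic groups and bulb traits were not used here. Genes named are the 2 members, 12 others that the study names, the 2 of highest and 2 of lowest r with each member, and ID neighbours. The members and lists were chosen with earlier results of these data known. Alternatives covered the pseudocount, scaling, filter, covariates and left-out libraries. Python 3.11.15 was used with SciPy 1.17.1, NumPy 2.4.6, Matplotlib 3.10.9 and pandas 2.3.3.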

Additional observations from a re-analysis of the deposited data

Results flagged for a closer look

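CDF2 in Xinjiang replicate 3, at 4.34 FPKM, lay apart from the other 8 Xinjiang accessions, which ran from 10.8 to 25.6 FPKM. Its gap to the nearest of them was 0.494 of the range of the group on the log2 scale, just beyond Dixon's critical value for 9 samples. This library is the only one of Xinjiang in the first column block. The check was made for 14 combinations of gene and group, and chance flags about 1 in 20. Shandong, with 15 accessions, was larger than the groups checked and was left out. There, Shandong replicate 8 had 0.832 FPKM of CDF2, against a site median of 16.6 FPKM.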

How the results depend on the processing

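Neither gene was called in the comparisons of countries, sites or southern with northern China under any alternative, and ELF4-like passed between the eastern Mediterranean and Canada only without Canada replicate 3 (adjusted p = 0.0422, limma). The log2 difference between countries of ELF4-like turned to 0.20 with 3 components as covariates and to 1.96 FPKM without the log, and that of CDF2 to 0.00267 in the third block alone. That of CDF2 between the Mediterranean and Canada turned to -1.29 with the column block as covariate, to -0.42 without the first block and to -2.17 FPKM without the log. With each accession left out in turn, the country difference ran from -0.44 to -0.15 for ELF4-like and from -0.20 to 0.0893 for CDF2 (above 0 without Canada replicate 5), and that between the Mediterranean and Canada from -2.30 to -1.27 for ELF4-like and from -0.42 to 0.68 for CDF2. Genes varying with ELF4-like numbered 8178 without the log and 2084 with 3 components. Those varying with CDF2 numbered 896 with the column block as covariate, 9403 with 3 components, 3011 by rank, 1739 without the 5 nearly silent libraries and 1424 without the first block. Of the 25 pairs, 3 passed with 3 components as covariates. Leaving out the first block, the 5 libraries or all but the third block, and every alternative for the 25 pairs, were chosen after seeing the data. The causes of these changes were not tested beyond the libraries and covariates named. The r of the 2 genes ran from -0.21 to -0.03 over the alternatives and did not pass the threshold, and it was slightly positive (0.03 and 0.01) within the first block and among the 43 accessions on the lower side of the first component. No paired analysis was possible because the labels do not match accessions of different groups with each other. CDF2 in the 5 low libraries rests on 6 to 24 reads each, so those values are imprecise. The relative depths of these libraries (0.461 to 1) lay within the range of the other 79.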
